A study of Danio rerio with 15 samples.

Results

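The step between the top 2 exposure levels of a dibutyl phthalate (DBP) dose series in zebrafish was examined, 100 μg/l against 50 μg/l, with 3 libraries at each dose. Transcripts were taken in when at least 10 estimated counts were present in 3 or more of these 6 libraries, and 28727 of the 46488 transcripts listed met this rule. The remaining 17761 were not tested, and 37904 had a count above 0 in at least 1 of the 6 libraries. The question was whether the top dose extended or reversed the changes present at 50 μg/l.

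Wild-type embryos of the AB strain were exposed in glass beakers of 30 embryos to DBP at 0, 5, 10, 50 or 100 μg/l, dissolved without solvent, from an early blastula stage and for 120 h. One library was made from the poly-A RNA of a pool of 10 whole embryos, and the 3 RNA samples of highest quality at each dose were sequenced, which gave 15 libraries in all. The 100 μg/l libraries carry the replicate letters A, C and E (100A, 100C and 100E) and the 50 μg/l libraries the letters A, B and D (50A, 50B and 50D). The controls at 0 μg/l received fish water only, and 50 μg/l follows the titles and methods, although a protocol field in the labels has 30 in its place. A pool averages its embryos, so a change in a few embryos and a change in all of them, or fewer cells of a type and less RNA per cell, cannot be told apart.

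DBP is a plasticiser that leaches from plastics, and phthalates are known for effects on hormone signalling. In the developing fish, retinoic acid made from vitamin A patterns the hindbrain, heart and fins, and its level is held down by enzymes of the Cyp26 family, which oxidise it. Muscle fibres that assemble at the same age depend on chaperones that fold the myosin motor. Transcripts of both systems could be followed by name, because 15 transcript identifiers are paired with gene symbols in the text of the study used here. The deposited files give identifiers without symbols, so the other transcripts are described by their values.

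The 100 μg/l libraries held 17.23 (100A), 24.02 (100C) and 27.99 M (100E, M for mega) assigned counts, and the 50 μg/l libraries 22.64 (50A), 20.09 (50B) and 23.19 M (50D). In a principal component analysis of 14 libraries, with the control labelled replicate B left out, component 1 carried 41% of the variance. The libraries at 0 and 5 μg/l lay between -60.8 (0E) and -16.1 (5A) on component 1, below all those at 50 μg/l. Component 1 did not separate 100 from 50 μg/l. Library 100E lay at -45.7 on it, beside both controls at -38.4 (0D) and -60.8 (0E), whereas 100A lay at 49.2 and 100C at 3.89. The 50 μg/l libraries lay at 51.6 (50A), 49.7 (50B) and 1.19 (50D). The mean difference on component 1 was -31.7 (exact two-sided permutation test over the 6 libraries, p = 0.5).

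Component 2, with 11.8% of the variance, placed the 3 libraries at 100 μg/l apart from all others. They lay at 47.2 (100A), 30.5 (100C) and 33.5 (100E), against -11.1 (50A), 12.9 (50B) and 9.22 (50D) at 50 μg/l. The highest of the 8 libraries at 0, 5 and 10 μg/l lay at -0.867 (0E). The difference between the 2 doses was 33.4, with a mean of 37 ± 8.9 for the 100 μg/l libraries and of 3.7 ± 12.9 for the 50 μg/l libraries (SD, n = 3 each) and p = 0.1 in the exact two-sided permutation test (0.2 after Benjamini-Hochberg adjustment over the 2 components). A p of 0.1 is the smallest that 3 libraries against 3 allow. Leaving out 100A lowered the difference to 21.3, over 1.5 times smaller, and the 2 remaining 100 μg/l libraries still lay above all those at 50 μg/l.

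**Figure D1:**
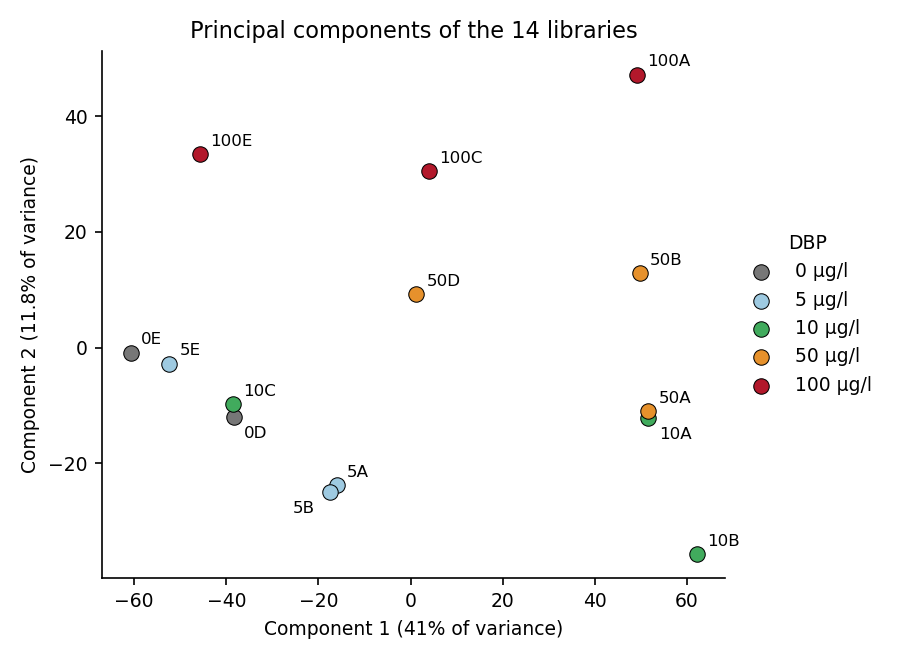
Scores of the 14 libraries on principal components 1 and 2 (arbitrary units), coloured by DBP dose and labelled by dose and replicate letter. The 3 libraries at 100 μg/l lie at 30.5 to 47.2 on component 2, above all others, but spread along component 1 between -45.7 and 49.2.

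Distances were taken over the 16446 transcripts with at least 10 counts in all 6 libraries and a mean of at least 5 CPM. Over these, pools of different dose were about as far apart as pools of one dose. The root mean square log2 distance between 2 libraries was 0.332 to 0.689 for the 9 pairs of different dose (median 0.453), 0.41 to 0.625 for the 3 pairs within 100 μg/l and 0.351 to 0.487 for the 3 pairs within 50 μg/l.

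No transcript differed between 100 and 50 μg/l in edgeR's quasi-likelihood test with Benjamini-Hochberg adjustment over all 28727 (0%, threshold 0.05), and the smallest adjusted p was 0.161. At an unadjusted p under 0.05, edgeR gave 1653 transcripts, 5.75% of those tested, of which 826 were higher and 827 lower at 100 μg/l. The 2 doses did not overlap in 3972 transcripts, with all 3 values at 100 μg/l higher in 2010 (7%) and lower in 1962 (6.83%). The median log2 fold change was 0.011. Other tools called more transcripts on the same 6 libraries. The Wald test of DESeq2 called 159 (0.553%), 77 higher and 82 lower at 100 μg/l, and limma on log2(CPM + 0.5), where CPM are counts scaled to a common library size, called 12 (0.0418%), 4 higher and 8 lower. All 12 were also among the 159, and each of the 12 was at 0 in all libraries of one dose. They passed the filter on counts only through the other dose. Of the 159, 49 had a library at 0. In 47 of these all libraries of one dose were at 0, so they too passed the filter only through the other dose. Another 108 of the 159 had at least 10 counts in all 6 libraries. Of these 108, 52 were higher and 56 lower, with a median absolute log2 fold change of 0.83 by DESeq2.

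The spread between pools set how small a difference could be seen. In the 24366 transcripts with at least 10 counts in all 6 libraries, the 95% interval of edgeR's log2 fold change reached a median of 0.51 to either side of the estimate. It lay wholly within a doubling or halving, that is within 1 of 0 on the log2 scale, in 71.2% of them. The median reach was 0.96 for transcripts with a mean under 1 CPM and 0.27 for those of 1000 CPM or more. An estimate beyond 1 on the log2 scale was found for 467 transcripts (1.92%).

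**Figure D2:**
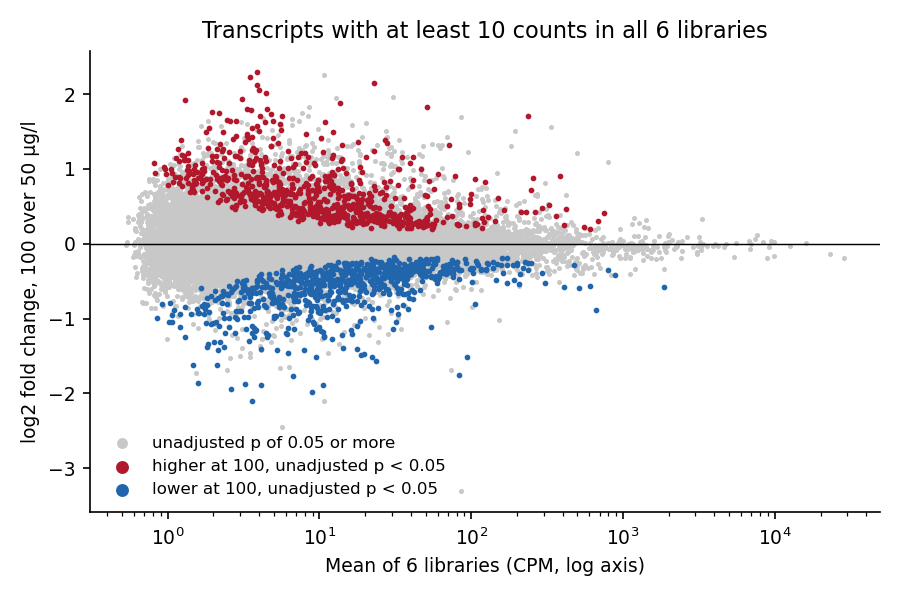
Mean abundance over the 6 libraries (CPM, log axis) against the log2 fold change of 100 over 50 μg/l for the 24366 transcripts with at least 10 counts in all 6 libraries, coloured where the unadjusted p was under 0.05. The points scatter to both sides of 0 and narrow with abundance, and none passed the adjusted threshold in edgeR. Among all transcripts tested, the median was 0.126 under 1 CPM and -0.037 at 1000 CPM or more.

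Among the 28727 transcripts tested, the doses did not overlap in 7% that were higher and 6.83% that were lower at 100 μg/l. Of the 15 named transcripts, 2 had doses that did not overlap, near that share. Both had an adjusted p of 0.777 in edgeR. The study's own trend test over the dose series, which used these 6 libraries, had selected all 15 but cyp26b1 and cyp26c1. They are thus not an independent set, and their p-values, dose series and share are a description. The first of the 2 was unc45b, which encodes a chaperone that folds muscle myosin. Its abundance was 49.3 (100A), 66.4 (100C) and 71.1 CPM (100E) at 100 μg/l, against 34.3 (50A), 42.7 (50B) and 43.1 CPM (50D) at 50 μg/l. The log2 fold change was 0.65 (SE 0.17, 95% interval 0.23 to 1.07), with an unadjusted p of 0.00904 in edgeR. Over the dose series, from 0 to 100 μg/l, the means ran 31.6, 34.8, 31.9, 40.0 and 62.3 CPM. The lowest 100 μg/l library was above every library of the other doses. Relative to the controls, which both doses share, unc45b had a log2 fold change of 0.98 at 100 μg/l (adjusted p = 0.207) and of 0.34 at 50 μg/l (adjusted p = 0.434) in the edgeR fit of 14 libraries. For this transcript of unc45b, the top dose lay further in the direction of the 50 μg/l value.

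The second was cyp26a1, one of the enzymes that oxidise retinoic acid, and its pattern was of the opposite kind. It was at 15.1 (100A), 15.1 (100C) and 12.9 CPM (100E) at 100 μg/l, against 19.7 (50A), 18.8 (50B) and 19.0 CPM (50D) at 50 μg/l, with a log2 fold change of -0.41 (SE 0.1, 95% interval -0.66 to -0.15, unadjusted p = 0.00742 in edgeR). The series of means ran 14.5, 17.3, 20.2, 19.2 and 14.4 CPM from 0 to 100 μg/l, so the level at the top dose was that of the controls. Relative to the controls it had a log2 fold change of -0.01 at 100 μg/l (adjusted p = 0.997) and 0.41 at 50 μg/l (adjusted p = 0.239, edgeR).

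The other members of the same pathway differed less. For cyp26b1, a second retinoic acid oxidase, the mean was 23.3 ± 3.57 CPM at 100 μg/l and 24.0 ± 3.08 CPM at 50 μg/l (SD, n = 3 each), a log2 fold change of -0.03 (95% interval -0.4 to 0.34). The third oxidase, cyp26c1, was at 8.00 ± 0.318 CPM at 100 μg/l and 8.76 ± 0.809 CPM at 50 μg/l, a log2 fold change of -0.12 (95% interval -0.44 to 0.2). Transcripts of rxraa, a retinoid X receptor that pairs with retinoic acid receptors, averaged 6.59 ± 0.701 CPM at 100 μg/l and 6.99 ± 1.43 CPM at 50 μg/l, with a log2 fold change of -0.07 (95% interval -0.55 to 0.41). Its means ran 9.99, 9.43, 8.42, 6.99 and 6.59 CPM over the dose series. These intervals leave room for differences of about the size seen in cyp26a1.

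Another chaperone was hspa4b, of the Hsp110 group that helps Hsp70 release its clients. It was at 190.0 ± 3.08 CPM at 100 μg/l and 178.7 ± 13.9 CPM at 50 μg/l, a log2 fold change of 0.1 (95% interval -0.12 to 0.32). For trim101, which is not counted among the chaperones, the log2 fold change was -0.07 (95% interval -0.3 to 0.16). Its level was 49.7 ± 4.9 CPM at 100 μg/l and 52.6 ± 1.13 CPM at 50 μg/l. The controls held 36.4 CPM of trim101, and relative to them it had log2 fold changes of 0.45 at 100 μg/l (adjusted p = 0.429) and 0.53 at 50 μg/l (adjusted p = 0.274, edgeR).

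The remaining 8 named transcripts had log2 fold changes between -0.02 and 0.22, and their values overlapped between the doses. They were cdh11, a cadherin of cell adhesion (0.04), the claudin of tight junctions that the study calls zgc:112437 (0.12), slc9a3r1a, a scaffold under the cell membrane (0.05), tdh2, an enzyme of threonine breakdown (-0.01), the mismatch repair gene pms1 (0.03), dap (0.22), yipf2 (-0.02) and mid1ip1l (0.08). Their adjusted p-values in edgeR were all above 0.05. For 7 of the 15, the sign of the log2 fold change turned when one of the 6 libraries was left out: cyp26b1, rxraa, cdh11, slc9a3r1a, tdh2, pms1 and yipf2.

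**Figure D3:**
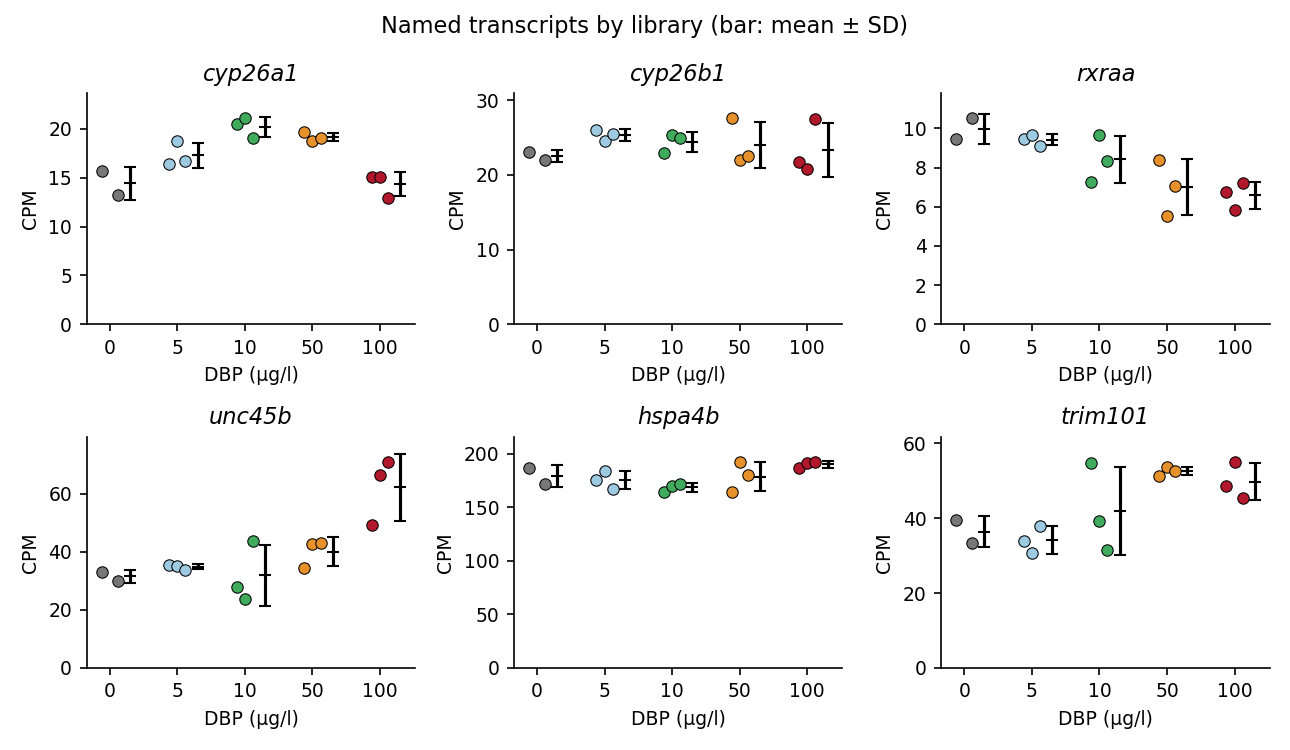
CPM of 6 named transcripts in each of the 14 libraries by DBP dose (points) with mean ± SD (black bars). For unc45b the 100 μg/l libraries lie at 49.3 to 71.1 CPM, above those at 50 μg/l, and for cyp26a1 at 12.9 to 15.1 CPM, below those at 50 μg/l and level with the controls.

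The 12 unnamed transcripts of smallest p in each direction, among those of at least 1 CPM, often were present at one dose and at 0 at the other. This was so for 6 of the 12 that were higher at 100 μg/l and for 11 of the 12 that were lower. A transcript at 0 throughout one dose could be tested only if all 3 libraries of the other reached 10 counts. Such transcripts entered through the dose where they were present, so their p-values, ranks and fold values are a description. The unadjusted p-values of the 24 ran between 5.61e-06 and 0.000483 in edgeR, and their adjusted p-values between 0.161 and 0.452. The transcript with the smallest p of all, ENSDART00000100032.5, was at 0 in all 3 libraries at 100 μg/l and had 375.3 (50A), 426.2 (50B) and 384.1 counts (50D) at 50 μg/l, which made it at least 428-fold lower at the top dose when a floor of 3 counts over the group is used. It was also at 0 in 10A and 10B, while 10C had 644.3 counts and the controls 1371 (0D) and 241.8 (0E). Absence was thus not particular to the top dose. ENSDART00000180043.1, with 0 at 100 μg/l and 93.2 (50A), 102.8 (50B) and 78.6 counts (50D), was at least 99.2-fold lower at the top dose and was likewise at 0 in 5A and 10A.

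Of those higher at 100 μg/l, ENSDART00000166357.2 had the smallest p and was expressed in every library. It was at 5.93 (100A), 5.14 (100C) and 4.85 CPM (100E), against 1.55 (50A), 1.60 (50B) and 1.43 CPM (50D). The log2 fold change was 1.8 (SE 0.19, 95% interval 1.34 to 2.25, unadjusted p = 6.89e-05, adjusted p = 0.292 in edgeR), and DESeq2 gave an adjusted p of 8.86e-07. The controls, at 5.03 (0D) and 5.43 CPM (0E), held the level of the 100 μg/l libraries, and the 5 and 10 μg/l libraries spread between 1.34 (10B) and 6.43 CPM (5E). ENSDART00000161010.2 was at 0 in all 50 μg/l libraries and had 144.0 (100A), 100.2 (100C) and 185.1 counts (100E), which made it at least 137-fold higher at the top dose. Of the other 8 libraries only 10C had any, with 183.7 counts.

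Such on and off patterns were found in 47 of the 28727 transcripts tested and ran both ways. In 23 transcripts all 3 libraries at 100 μg/l were at 0 and each at 50 μg/l had at least 10 counts, and in 24 transcripts it was the reverse. All of these 47 were also at 0 in at least 1 of the 8 libraries at 0, 5 and 10 μg/l, in a median of 4 of them in either set, and 2 of the 24 were at 0 in all 8. Only 4 had 100 counts or more in every library of the dose where they were present, 3 of them at 0 at 100 μg/l and 1 at 0 at 50 μg/l. The 3 were ENSDART00000100032.5 and others of 13446 and 8406 bases, and the 1 was ENSDART00000161010.2. Between other doses of 3 libraries each, the same count gave 22 absent at 50 μg/l and 13 absent at 10 μg/l for that pair, 40 absent at 100 μg/l and 21 absent at 10 μg/l, 39 absent at 10 μg/l and 47 absent at 5 μg/l, 86 absent at 50 μg/l and 84 absent at 5 μg/l, and 69 absent at 100 μg/l and 76 absent at 5 μg/l. The 23 and 24 for 100 and 50 μg/l were thus near the low end of a range from 13 to 86. Reads shared by near-identical isoforms are split among them by Salmon, which makes such values uncertain, and the part of this step in the on and off patterns was not tested.

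**Figure D4:**
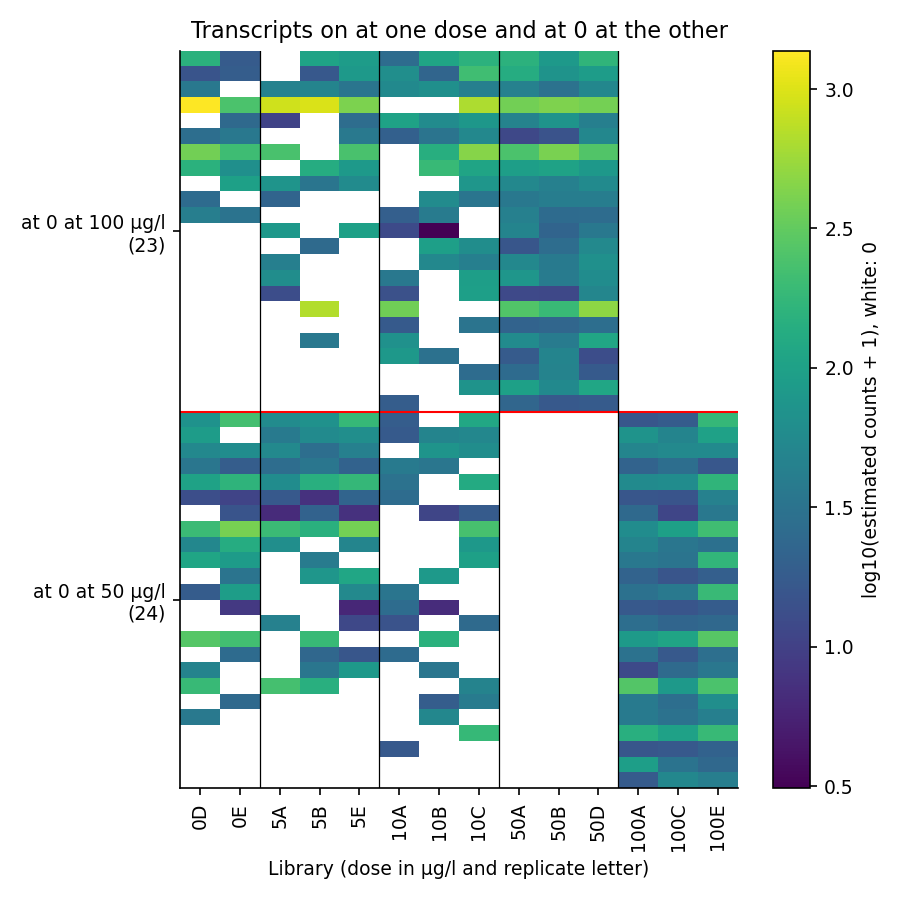
Estimated counts (log10 of count + 1, white at 0) of the transcripts at 0 in all libraries of one dose and at 10 or more in each of the other, 23 at 0 at 100 μg/l and 24 at 0 at 50 μg/l, in the 14 libraries. White cells are scattered over the libraries at 0, 5 and 10 μg/l in both sets.

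The control mean was set beside both doses for the 1653 transcripts with an unadjusted p under 0.05. It shows whether they went further from the controls or back toward them. The controls did not enter the comparison of 100 with 50 μg/l, but the 2 doses that they were set against chose these transcripts. Of the 826 that were higher at 100 μg/l, 165 (20%) had the controls below the 50 μg/l mean, so that the top dose extended the difference, 225 (27.2%) had the controls above the 100 μg/l mean, so that the top dose lay back toward them, and in 436 (52.8%) the control mean lay between the 2 doses. Of the 827 that were lower, 90 (10.9%) extended, 207 (25%) lay back toward the controls and 530 (64.1%) had the controls between. In all transcripts tested, whatever their p, 33.7% of those with a higher mean extended and 46.6% lay back, and 25.1% of those with a lower mean extended and 51% lay back. The control mean lay between the doses in 19.7% and 24% of them. Choosing transcripts by a wide gap between the doses makes a control mean between them more likely. The shares in all transcripts are therefore not a like reference for the 1653. The balance moved with single libraries. Without 100E, which lay beside the controls on component 1, 145 extended and 78 lay back among 426 that were higher at 100 μg/l, and 144 extended and 101 lay back among 617 that were lower. Without 100C it was about even, with 116 extended and 118 back among the higher ones and 102 extended and 101 back among the lower ones, and without 50B it was 125 and 126 among the higher ones and 44 and 126 among the lower ones. Leaving out 50D or 100A moved it the other way, to 89 extended and 527 back among the higher ones without 50D, and to 147 and 564 without 100A. Without 50A it was 88 extended and 133 back among the higher ones, and 55 and 102 among the lower ones. More lay back than extended with all 6 libraries, but more extended without 100E. Neither direction was therefore stable to the choice of libraries.

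A second reading used transcripts chosen at doses that share no library with either side. They came from the fit of 14 libraries, so the 50 and 100 μg/l libraries did enter its scaling and its estimate of spread. Between 10 and 5 μg/l, 1584 transcripts were higher at 10 μg/l (4.88% of 32453 tested) and 1059 lower (3.26%) at an unadjusted p under 0.05 in edgeR. Of the 1525 higher ones that were tested at 100 against 50 μg/l, 414 were higher and 1111 lower at 100 μg/l, with a median log2 fold change of -0.14. Of the 965 lower ones, 771 were higher and 194 lower at 100 μg/l, with a median of 0.18. In all 28727 tested, 14785 were higher and 13942 lower, with a median of 0.011. By count, more of these transcripts differed the other way between 50 and 100 μg/l than the same way. Transcripts of one pool are measured together and are not replicates, so the counts describe the 3 pools a dose. The medians moved with library 100E and were -0.05 and 0.08 without it, and -0.22 and 0.24 without 100A. On component 1 the 10 μg/l libraries were spread as well, with 10A at 51.6, 10B at 62.2 and 10C at -38.5, and the part of component 1 in these medians was not tested.

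At the adjusted threshold, few transcripts differed from the controls. In the edgeR fit of 14 libraries, with 32453 tested, 10 μg/l gave 13 calls (0.0401%), 50 μg/l gave 17 (0.0524%) and 100 μg/l gave 28 (0.0863%). The comparisons share the controls and, in part, the libraries of the step from 50 to 100 μg/l, so the values are set side by side without a test. With the replicate letter as a block, 10, 50 and 100 μg/l each gave 0 calls against controls, though letters were not shown to pair beakers. Without the block, left-out libraries moved the counts by more than 1.5 times. Without 0E the count was 41 at 50 μg/l and 37 at 10 μg/l, without 50D it was 26 at 50 μg/l, without 100A 15 and without 100E 44 at 100 μg/l, and at 10 μg/l it was 20 without 0D, 8 without 10A and 76 without 10C.

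None of the 11 transcripts called higher at 50 μg/l than in controls had an unadjusted p under 0.05 at 100 against 50 μg/l in edgeR. Over all transcripts tested the share was 5.75%, so none among 11 does not set them apart. For this step, 3 of the 11 were higher and 8 lower at the top dose, with a median log2 fold change of -0.28. Of these 11, 7 were at 0 in both controls, and 6 of the 7 had counts in the control labelled replicate B, which was left out. The largest change was that of a transcript of 576 bases, at 137.4 (100A), 121.5 (100C) and 86.8 CPM (100E), against 76.8 (50A), 114.7 (50B) and 134.6 CPM (50D), at 0 in both controls and at 276.6 CPM in the control left out. The second, of 2778 bases, was at 33.6 (100A), 37.7 (100C) and 27.4 CPM (100E), against 34.9 (50A), 52.6 (50B) and 35.9 CPM (50D), at 0 in all 5 libraries at 0 and 5 μg/l and at 71.2 CPM in the control left out. The third, of 780 bases, was at 11.3 (100A), 6.32 (100C) and 4.89 CPM (100E), against 14.7 (50A), 12.2 (50B) and 9.74 CPM (50D), with a log2 fold change of -0.7 (95% interval -1.53 to 0.14), and the control left out had 15.0 CPM. A transcript of 312 bases, named here after its values were seen, was detected in every library. It was at 74.7 (100A), 85.9 (100C) and 81.9 CPM (100E), against 61.9 (50A), 81.4 (50B) and 78.3 CPM (50D), and at 3.07 ± 1.23 CPM in the controls (SD, n = 2), so the rise called at 50 μg/l (log2 fold change 4.59, adjusted p = 0.00484 in edgeR) was held at 100 μg/l (4.72, adjusted p = 0.0032).

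Of the 6 transcripts called lower at 50 μg/l, 3 were at 0 in all 6 libraries of both doses and only 2 could be tested for the step. The most abundant at 0 held 951.3 ± 97 CPM in the controls and was at 0 in all 9 libraries from 10 μg/l upwards, while the control left out had 12.5 CPM. The next, of 855 bases, held 40.2 ± 10.7 CPM in the controls and was at 0 in the same 9 libraries and in the control left out. A transcript of 384 bases was at 6.04 (100A), 6.40 (100C) and 5.06 CPM (100E), against 6.77 (50A), 6.83 (50B) and 5.47 CPM (50D). It was at 14.1 ± 2.58 CPM in the controls and at 60.7 CPM in the control left out. Its log2 fold change for the step was -0.11 (95% interval -0.53 to 0.3). A transcript of 306 bases was at 49.7 (100A), 40.6 (100C) and 47.6 CPM (100E), against 51.7 (50A), 38.8 (50B) and 44.9 CPM (50D), and at 98.2 ± 3.01 CPM in the controls. Its log2 fold change at 100 against 50 μg/l was 0.04 (95% interval -0.29 to 0.36), so the lower level called at 50 μg/l (-1.12, adjusted p = 0.0153 in edgeR) was again held. The remaining call, a transcript of 4089 bases named here after its values were seen, was the only one of the 6 to lie back at the control level. It was at 0.469 (100A), 0.478 (100C) and 0.784 CPM (100E), against 0 in all 3 libraries at 50 μg/l, and at 0.600 ± 0.131 CPM in the controls. It was called lower at 50 μg/l (adjusted p = 0.0238 in edgeR) and had a log2 fold change of -0.05 at 100 μg/l relative to the controls (adjusted p = 1), and its counts were too low for the test of the step.

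The calls at the top dose held a group of another kind. Of the 21 transcripts called higher at 100 μg/l than in controls, 12 were above 0 in the controls. The other 9 were at 0 in both controls, and 7 of these 9 had counts in the control left out. Over all transcripts tested at 100 against 50 μg/l, 5.75% had an unadjusted p under 0.05 in edgeR and DESeq2 called 0.553%. Of the 21, 7 had such an unadjusted p, all 7 higher at 100 μg/l by log2 fold changes of 0.2 to 0.83. DESeq2 called 4 of the 7 for that step. The 7 come from calls on the same 100 μg/l libraries, so their number and direction are a description. The one with the largest step, of 483 bases, was at 16.2 (100A), 14.1 (100C) and 13.5 CPM (100E), against 7.76 (50A), 9.49 (50B) and 7.46 CPM (50D), a log2 fold change of 0.83 (SE 0.15, adjusted p = 0.692 in edgeR). Its means ran 4.33, 3.98, 4.57, 8.24 and 14.6 CPM from 0 to 100 μg/l. Another, of 1107 bases, was at 121.0 (100A), 109.3 (100C) and 123.5 CPM (100E), against 77.6 (50A), 92.1 (50B) and 76.7 CPM (50D), with means of 53.4, 60.9, 60.2, 82.1 and 117.9 CPM over the series. By their means, both were level from 0 to 10 μg/l, above that at 50 μg/l and higher again at 100 μg/l. Neither was called at 50 μg/l relative to the controls (adjusted p = 0.116 for the first and 0.0997 for the second in edgeR). For the step, the adjusted p of the second was 0.734 in edgeR. Another 7 transcripts were called lower at 100 μg/l than in controls. Of these, 4 were at 0 in all 6 libraries and were not tested for the step.

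Long transcripts were lower at 100 μg/l than at 50 μg/l by a small amount. Of the lengths of the tested transcripts, 95.6% are multiples of 3, so they are coding lengths. For the 185 transcripts of 9000 bases or more with at least 10 counts in all 6 libraries, the median log2 deviation from the mean of the 6 libraries was -0.092 (100A), -0.086 (100C) and -0.008 (100E), against 0.14 (50A), 0.038 (50B) and 0.011 (50D). The difference was -0.125, and the doses did not overlap, though 100E and 50D lay close together. It was -0.089 for 6000 to 9000 bases, -0.067 for 4000 to 6000 and -0.036 for 2000 to 4000, each also without overlap, and between 0.005 and 0.025 in the 4 classes below. Each of the 4 long classes reached p = 0.1, the smallest possible, in the exact two-sided permutation test over libraries, and 0.2 after Benjamini-Hochberg adjustment over the 8 classes. Library 50A stood highest, and without it the difference of the longest class was -0.077.

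**Figure D5:**
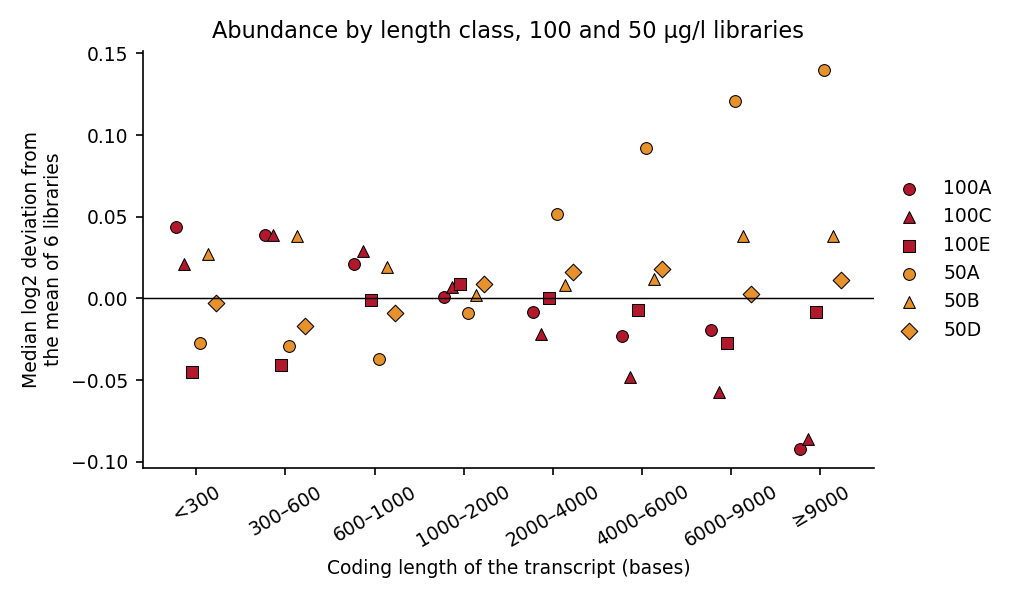
Median log2 deviation of each of the 6 libraries from their common mean (vertical axis) by class of coding length in bases (horizontal axis), red for 100 μg/l and orange for 50 μg/l. From 2000 bases upwards the 100 μg/l libraries lie at or below 0 and all 50 μg/l libraries above 0, with 50A at 0.14 in the longest class.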

How the data were processed

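Poly-A RNA of 15 pools of zebrafish embryos was sequenced with directional single reads of 75 bases. The authors trimmed the reads with Trimmomatic and quantified them on the GRCz11 reference transcriptome with Salmon 1.5.1, and they deposited estimated counts per transcript, scaled for neither depth nor length. The TPM values they deposited for each library are scaled by effective length and library.

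Here the estimated counts were rounded and tested with edgeR 4.0.16 (quasi-likelihood, TMM scaling) in the 6 libraries, with Benjamini-Hochberg adjustment. Comparisons with controls came from one fit of 14 libraries, for transcripts with at least 10 counts in 2 of them. The control labelled replicate B was left out, because of the 3 controls only its omission leaves 39890 transcripts detected, the background size of the study, although the labels mark replicate D. CPM use the TMM scaling of the 14 libraries, and the count of transcripts that do not overlap that of the 6. The CPM of the control left out are scaled by its total counts alone, without a TMM factor. Component analysis used log2(CPM + 0.5) of transcripts with at least 10 counts in 12 libraries. Alternatives used DESeq2 1.42.0, limma 3.58.1, TPM (log2 of TPM + 1), other filters and left-out libraries, under R 4.3.3. The scripts were tested on simulated counts. The labels do not tie each pool to a beaker, so p-values measure the spread between pools. A count of 0 allows up to 3 counts, and this floor covers counting error only.

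Named transcripts are those paired with a symbol in the text of the study used here (for trim101, hspa4b, yipf2 and mid1ip1l after dropping a surplus 0 in the printed identifier) and, by rule, the 12 of smallest p in each direction with at least 1 CPM and doses that do not overlap, of which at most 2 each way are printed, the largest changes called against controls, and transcripts at 0 at one dose with 100 counts or more in each library of the other. Members and lists were chosen with earlier results of these data known. The study's trend test on these libraries had selected most of the transcripts that it pairs with a symbol. Marker and pathway lists, and sequences, are not analysed here, since a full map of transcripts to genes was not used here.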

Additional observations from a re-analysis of the deposited data

How the results depend on the processing

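For 100 against 50 μg/l, the count of 0 calls in edgeR stayed at 0 with DESeq2 size factors, without a filter, with at least 10 counts in all 6 libraries, in fits of 14 and 15 libraries and without each of the 6 libraries (0 to 0), and with limma on log2(TPM + 1). It was 159 by DESeq2's Wald test, with 54 adjusted p-values missing, and 12 by limma on log2(CPM + 0.5). At an unadjusted p under 0.05 the count without one library was 1018 to 3047, over 1.5 times away from 1653 without 50A (1018), 100E (1043) and 100A (3047). Transcripts that do not overlap numbered 5876 to 9736 without one library, when fewer libraries have to separate.

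Against controls, fits of 15 libraries gave 7 calls at 50 μg/l and 4 at 10 μg/l, and with control B in place of D there were 17 at 100 μg/l and 8 at 10 μg/l. The ranges without one library were 13 to 41 at 50 μg/l, 15 to 44 at 100 μg/l and 8 to 76 at 10 μg/l. With the replicate letter as a block in the 14-library fit there were 0 calls for 100 against 50 μg/l (1333 at an unadjusted p under 0.05), and 0 at 50, 100 and 10 μg/l against controls. Letters were not shown to pair beakers. Of 14 same-letter pairs 11 had deviations correlated over 0.1 (-0.148 to 0.376), and 2 of 14 libraries correlated best with their own letter. The median correlation was 0.156 for same-letter pairs and -0.071 for the 64 other pairs.

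Signs turned in the block fit for slc9a3r1a (-0.16) and pms1 (-0.06), and for tdh2 (0) with 10 counts in all 6 libraries. Without one library the log2 fold change was -0.16 to 0.08 for cyp26b1, -0.21 to 0.08 for rxraa, -0.07 to 0.11 for cdh11, -0.11 to 0.13 for slc9a3r1a, -0.25 to 0.13 for tdh2, -0.03 to 0.1 for pms1 and -0.07 to 0 for yipf2. It kept its sign for unc45b (0.54 to 0.8) and cyp26a1 (-0.44 to -0.33). The cause of these changes was not tested. Alternatives without one library for component 2, the 10 against 5 μg/l lists, the order of means and the long transcripts were chosen after seeing the data. With 3 pools a dose, depth of 17.23 to 27.99 M counts limits low transcripts most.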
